A study of Macaca mulatta with 8 samples.

Results

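The fibroblast growth factor (FGF) receptors and the feedback targets of FGF signalling were followed through neural differentiation of rhesus monkey embryonic stem cells. The members were named by symbol: the receptors FGFR1, FGFR2, FGFR3 and FGFR4, the Sprouty genes SPRY1, SPRY2 and SPRY4, the ETS factors ETV4 and ETV5, and the phosphatase DUSP6. Of these 10 genes, 9 have a row among the 12460 gene symbols of the mRNA table, and 8 are above 0 in all 4 stages. FGFR4 has no row and was not analysed here. SPRY1 and SPRY2 stand in the table as LOC708752 and LOC702103, whose descriptions only repeat the symbol, and were named by their gene IDs in RefSeq (assembly T2T-MMU8v2.0).

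The 4 stages of the wild-type line IVF3.2 were undifferentiated ESCs, rosette neural stem cells at passage 1 (R-NSCP1), their descendants at passage 6 (R-NSCP6), and neural progenitor cells (NPC). ESCs grew on inactivated mouse embryonic fibroblasts and were made into embryoid bodies in their medium without bFGF (FGF2). Outgrowths of these bodies received 20 ng/ml of bFGF. Rosettes of passage 1 were picked by hand and kept with 200 ng/ml of SHH, 100 ng/ml of FGF8 and 20 ng/ml of BDNF. The medium of the later rosette passages held 500 ng/ml each of SHH, Dll4 and Jagged-1 with 20 ng/ml of BDNF, and its description names no FGF. By passage 6 the cultures had lost their rosettes, so the R-NSCP6 sample is the whole dish without picking. NPCs were kept for more than 100 days with 20 ng/ml each of FGF2, EGF and BDNF. Each stage had 1 mRNA library made from pooled repeats of the differentiation of 1 cell line, so no spread between replicates was measured and no test was made. Stage, medium and the way of collecting cells cannot be told apart. In such bulk samples, fewer cells with a transcript and less transcript per cell cannot be told apart either.

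FGFs bind receptor tyrosine kinases together with heparan sulphate. The receptors then signal through the adaptor FRS2, RAS, RAF and MEK to the kinase ERK. ERK signalling induces its own restraints: Sprouty proteins act on the path from receptor to RAF, and DUSP6 removes phosphate from ERK in the cytoplasm. ETV4 and ETV5 are transcription factors that carry the FGF response into the nucleus. In vertebrate embryos the transcripts of these feedback genes closely follow sites of FGF signalling, and FGF2 is the usual mitogen of neural stem cells in culture.

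Values are FPKM (mapped fragments scaled to exon length and to the depth of the library) as the authors deposited them, which can be compared between genes because they are per length. Counts behind them are not known, so the error of a single value is unknown. A gene was called higher or lower between 2 stages when the higher value was at least 3 FPKM and the ratio at least 2. A value listed at 0 gave no ratio.

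FGFR1, the main receptor of neural progenitors in rodents, was at 58.5 FPKM in ESC, 46.4 at passage 1, 35.8 at passage 6 and 87.8 in NPC, a range of 2.45-fold between lowest and highest. It exceeded FGFR3 in ESC, R-NSCP1 and NPC. FGFR3, a receptor of ventricular zone progenitors and later of astrocytes, moved most: it was at 4.998 FPKM in ESC, 14.7 at passage 1, 50.6 at passage 6 and 23.9 in NPC. R-NSCP6 was thus 10.1-fold above ESC and 2.12-fold above NPC, the stage second to it. FGFR2, a receptor with epithelial and mesenchymal splice forms, was at 12.6 FPKM in ESC and is listed at 0 in the 3 later stages. The table lists 40 symbols in this way, and among them are genes of the respiratory chain that every cell uses, such as COX5A (943 FPKM in ESC). The 0 of FGFR2 therefore cannot be read as a level.

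**Figure D1:**
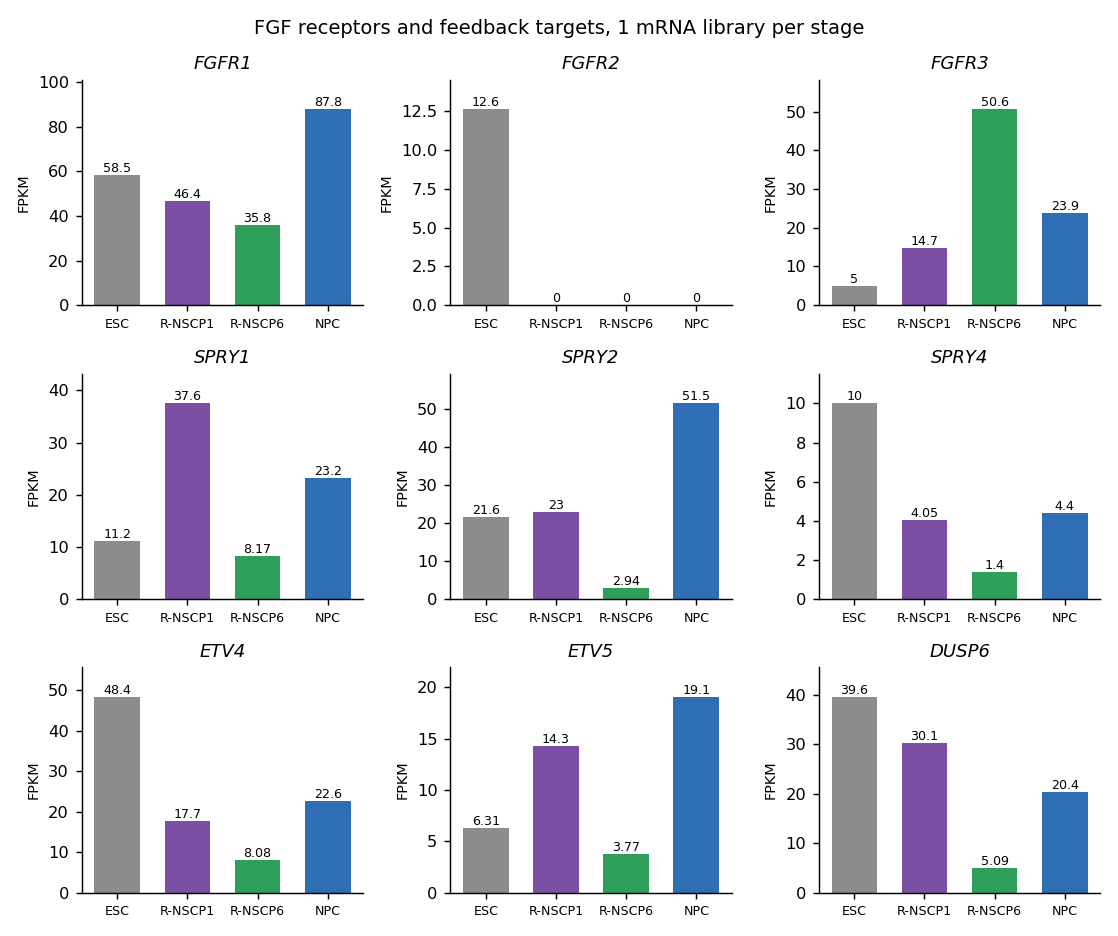
FPKM of the 9 members with a row (vertical axes from 0, a scale of its own for each gene) in the 4 stages, 1 library per bar and no error bar. The 6 feedback targets have their lowest bar in R-NSCP6, and FGFR3 has its highest bar there, with 50.6 FPKM.

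All 6 feedback targets, and FGFR1, had their lowest value in R-NSCP6. Over all genes above 0 in every stage, 23.4% were lowest in that stage. The count of members lowest in R-NSCP6 was planned after values of some members had been seen. FGFR3 was lowest in ESC, as were 33.5% of all genes. SPRY2, a Sprouty inhibitor that binds the adaptor GRB2 once phosphorylated, was at 21.6 FPKM in ESC, 23.0 at passage 1, 2.94 at passage 6 and 51.5 in NPC. Its R-NSCP6 value was 7.36-fold under the next lowest stage, the widest such gap among the members. SPRY1, its close relative with a known role in kidney branching in the mouse, was at 11.2 FPKM in ESC, 37.6 at passage 1, 8.17 at passage 6 and 23.2 in NPC. ESC and R-NSCP6 were near each other for SPRY1 (1.37-fold), which was highest in R-NSCP1.

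SPRY4, a Sprouty that acts on the same cascade, was the least abundant of these Sprouty genes in all 4 libraries. Its values were 10.0 FPKM in ESC, 4.05 at passage 1, 1.40 at passage 6 and 4.396 in NPC. R-NSCP1 and NPC were level for this gene, with a ratio of 1.08. ETV4, an ETS factor of the PEA3 group, was at 48.4 FPKM in ESC, 17.7 at passage 1, 8.08 at passage 6 and 22.6 in NPC. ETV5, of the same group, was at 6.31 FPKM in ESC, 14.3 at passage 1, 3.77 at passage 6 and 19.1 in NPC. The pair thus shared the low R-NSCP6 value and differed in ESC, where ETV4 had its highest value and ETV5 its second lowest. DUSP6, the cytoplasmic ERK phosphatase, was at 39.6 FPKM in ESC, 30.1 at passage 1, 5.09 at passage 6 and 20.4 in NPC. Its R-NSCP6 value was 3.998-fold under that of NPC, its next lowest stage. For 4 of the 6 targets (SPRY2, SPRY4, ETV4 and DUSP6) the gap to the next stage reached 2-fold. That rule was met by 4.78% of all genes.

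Between ESC and the first rosettes the members split. In R-NSCP1 over ESC, 3 of the 8 members with a ratio were higher, where 19.4% of all genes were, and 2 were lower, where 14.7% of all genes were. The higher ones were SPRY1 (3.36-fold), FGFR3 (2.93-fold) and ETV5 (2.27-fold). The lower ones were ETV4 (2.74-fold) and SPRY4 (2.47-fold), and both calls were lost with FPKM divided by its library sum. FGFR1, SPRY2 and DUSP6 were within 2-fold. The sign of FGFR1 and DUSP6 was negative as deposited (log2 ratios of -0.33 and -0.39) and positive with library-sum scaling (0.72 and 0.66), so neither has a direction here.

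From passage 1 to passage 6 the feedback targets moved together. In R-NSCP6 over R-NSCP1, all 6 targets were lower, where 14.1% of all genes were. The folds were 7.80 for SPRY2, 5.92 for DUSP6, 4.60 for SPRY1, 3.80 for ETV5, 2.89 for SPRY4 and 2.19 for ETV4. Of all genes with a ratio, 1.27% had a log2 ratio as low as that of SPRY2 and 1.79% as low as that of DUSP6. FGFR3 was the only member called higher, by 3.45-fold, where 16.2% of all genes were higher. FGFR1 was 1.30-fold lower and not called. The median log2 ratio was -2.06 over the 6 targets and 0.03 over all genes.

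From R-NSCP6 to NPC the direction turned. In NPC over R-NSCP6, 7 of 8 members were higher, where 16.2% of all genes were. SPRY2 was 17.5-fold higher, ETV5 5.06-fold, DUSP6 3.998-fold, SPRY4 3.13-fold, SPRY1 2.84-fold, ETV4 2.80-fold and FGFR1 2.45-fold. FGFR3 was 2.12-fold lower, where 21.3% of all genes were lower, and fell short of 2-fold under all 3 other scalings. The median log2 ratio was 1.82 over the 6 targets and -0.20 over all genes. Lower in the one step and higher in the next were all 6 targets, against 5.49% of all genes. These 2 steps share the R-NSCP6 library, so a feature of that single library enters both. One such feature was seen: by the gene spans of the RefSeq table, whose assembly is not that of the files and from which no values are given here, genes of longer span tended to have lower ratios in R-NSCP6 over R-NSCP1 and higher ones in NPC over R-NSCP6. Its part in the levels of the members was not tested.

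**Figure D2:**
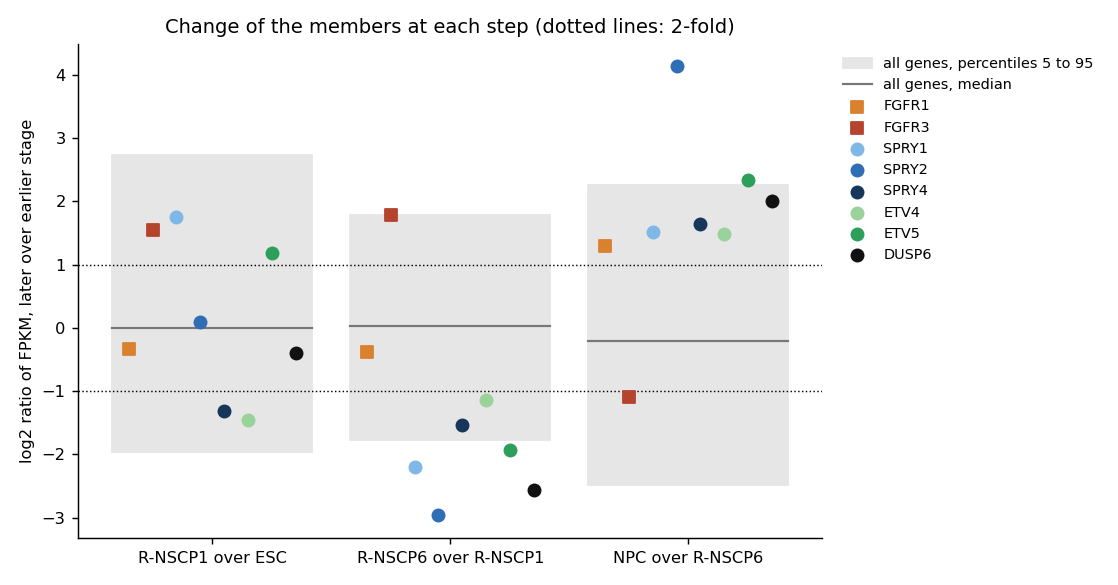
Log2 ratio of FPKM, later over earlier stage, for the 8 members with a ratio at each of the 3 steps; squares are receptors and circles feedback targets. The grey box spans percentiles 5 to 95 of all genes and its line is their median; all 6 circles lie below the lower dotted line (2-fold) in R-NSCP6 over R-NSCP1 and above the upper one in NPC over R-NSCP6.

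In NPC over R-NSCP1, 7 of the 8 members were within 2-fold, and SPRY2 was 2.24-fold higher, where 12.3% of all genes were higher. None was lower, where 15.1% of all genes were. Most of all genes thus stayed within 2-fold as well, and with median-of-ratios scaling FGFR1 was called higher too. Against ESC, NPC had 4 members higher (FGFR3 by 4.77-fold, ETV5 by 3.02-fold, SPRY2 by 2.38-fold and SPRY1 by 2.08-fold), where 23.7% of all genes were. It had 2 lower (SPRY4 by 2.28-fold and ETV4 by 2.14-fold), where 25.2% of all genes were, and both of these calls were lost with upper-quartile and with library-sum scaling. In R-NSCP6 over ESC, 4 members were lower, where 22.0% of all genes were: DUSP6 by 7.77-fold, SPRY2 by 7.36-fold, SPRY4 by 7.14-fold and ETV4 by 6.00-fold. FGFR3 was the 1 member higher there, where 27.1% of all genes were. These comparisons share libraries with the steps above and add no independent values.

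Ratios inside 1 library do not depend on how libraries are scaled. A trend of ratios between stages with gene span, such as the one seen for R-NSCP6, would enter their comparison between libraries. FGFR3 over FGFR1 was 0.0855 in ESC, 0.316 at passage 1, 1.41 at passage 6 and 0.272 in NPC, so FGFR3 exceeded FGFR1 in R-NSCP6 alone among the 4 libraries. ETV4 over ETV5 was 7.67 in ESC, 1.24 at passage 1, 2.14 at passage 6 and 1.19 in NPC. The Sprouty make-up also differed. SPRY2 held 65.1% of the summed Sprouty FPKM in NPC and 50.5% in ESC, whereas SPRY1 held 65.3% in R-NSCP6 and 58.2% in R-NSCP1. The share of SPRY4 was 23.4% in ESC and between 5.56% and 11.2% in the neural stages.

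The 6 targets summed to 137 FPKM in ESC, 127 at passage 1, 29.5 at passage 6 and 141 in NPC. FGFR1 and FGFR3 together had 63.5, 61.1, 86.4 and 112 FPKM in the same order. Summed targets over summed receptors thus came to 2.16 in ESC, 2.07 at passage 1, 0.341 at passage 6 and 1.26 in NPC. These sums leave out FGFR2, and the order of the sums between libraries depends on the scaling.

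**Figure D3:**
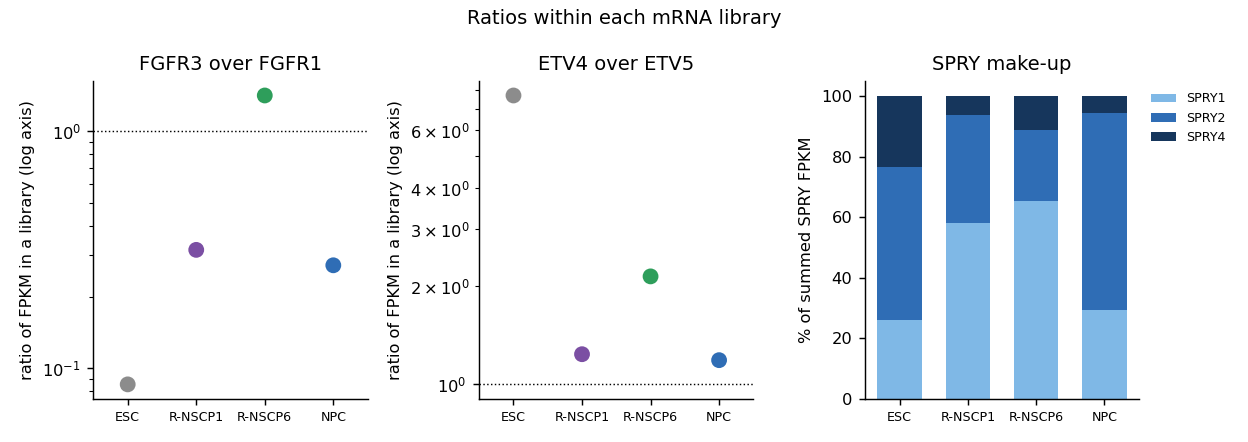
Ratio of FGFR3 to FGFR1 and of ETV4 to ETV5 within each mRNA library (log axes, 1 point per library, dotted line at 1), and share of SPRY1, SPRY2 and SPRY4 in their summed FPKM (percent). FGFR3 lies above FGFR1 in R-NSCP6, at a ratio of 1.41, and SPRY2 has its largest share in NPC, at 65.1%.

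Of 22 FGF ligand genes, 8 have a row, among them the secreted FGF1, FGF2, FGF8 (LOC714199, named by its description), FGF17 (LOC706659) and FGF19. FGF11, FGF12 (LOC705813) and FGF13 belong to a group that stays in the cell and does not act through the receptors in the usual way. FGF2, which maintains ESCs in culture, was at 25.7 FPKM in ESC, 7.67 at passage 1, 1.72 at passage 6 and 8.28 in NPC, so the ligand gene too was lowest in R-NSCP6. FGF8, a ligand of the isthmic organizer, was at 22.9 FPKM in ESC, 4.38 at passage 1, 0.866 at passage 6 and 0.0521 in NPC. FGF17, a relative of FGF8, was at 20.5, 3.03 and 1.37 FPKM in the first 3 stages and is listed at 0 in NPC. The one ligand gene highest in NPC was FGF1, at 15.5 FPKM against 0.170 in R-NSCP6. FGF12 (18.0 FPKM) and FGF13 (7.32 FPKM) were highest in ESC. In R-NSCP1 over ESC, 5 of 7 ligand genes with a ratio were lower and 1 higher, against 14.7% and 19.4% of all genes. In R-NSCP6 over R-NSCP1, 4 of 5 were lower, against 14.1%, and in NPC over R-NSCP6, 3 of 4 were higher, against 16.2%. These counts include the genes that stay in the cell. FGF11 was the gene higher in R-NSCP1 over ESC, where FGF13 was among the lower ones. FGF12 was among those lower in R-NSCP6 over R-NSCP1, where FGF11 was not called. In NPC over R-NSCP6, FGF12 was among the higher ones and FGF11 was lower.

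**Figure D4:**
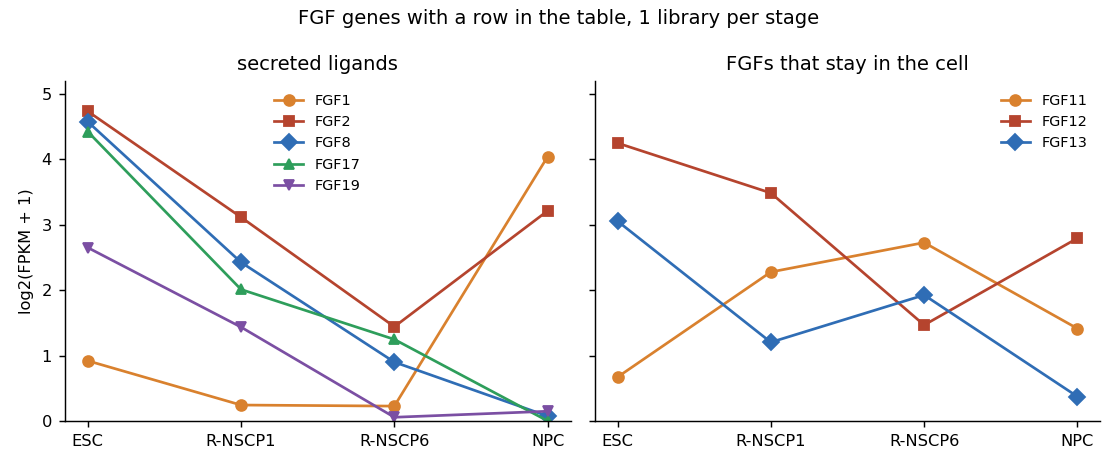
Log2(FPKM + 1) of the 8 FGF genes with a row over the 4 stages, 1 library per point; lines only join the points of a gene. FGF2 dips in R-NSCP6 (1.72 FPKM), the other secreted ligands of ESC are near 0 in NPC, and FGF1 stands out in NPC with 15.5 FPKM.

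Co-receptors and heparan sulphate genes were called mainly at the first step. In R-NSCP1 over ESC, 12 of 22 genes with a row were higher and 1 lower, against 19.4% and 14.7% of all genes. Of these, GPC3 was at 149 FPKM in R-NSCP1 against 19.9 in ESC, and NCAM1, an adhesion molecule that can bind FGF receptors, at 31.2 against 6.38. In R-NSCP6 over R-NSCP1, 3 were higher and 5 lower, against 16.2% and 14.1% of all genes. The glypicans GPC1 and GPC2, which carry heparan sulphate, were at 73.6 and 73.9 FPKM in R-NSCP6, against 16.6 and 23.8 in R-NSCP1. SULF2, which trims sulphate from heparan chains, was at 79.1 FPKM in R-NSCP6 against 13.3 in R-NSCP1. In NPC over R-NSCP6, 4 were higher, among them the syndecan SDC3 (114 against 43.1 FPKM), and 3 lower, against 16.2% and 21.3% of all genes. The higher count was 7 with upper-quartile and with median-of-ratios scaling and 9 with the library sum. The 4 of 22 genes that were lowest in R-NSCP6 (18.2%) came near the 23.4% of all genes.

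Of 21 genes of the cascade from the receptor to ERK with a row, 10 were lowest in R-NSCP6 (47.6%), against 23.4% of all genes. In R-NSCP6 over R-NSCP1, 6 were lower and 4 higher, against 14.1% and 16.2% of all genes, so the higher count was near that of all genes. The adaptor SHC1 was at 6.61 FPKM in R-NSCP6 against 29.9 in R-NSCP1, and the phosphatase PTPN11 (SHP2), which the receptors need to reach RAS, at 12.6 against 38.7. In contrast, HRAS was at 38.5 FPKM in R-NSCP6 against 15.4 in R-NSCP1, the MEK gene MAP2K2 at 178 against 58.8, and the ERK1 gene MAPK3 at 50.9 against 23.3. All 4 higher calls, HRAS, MAP2K2 and MAPK3 among them, were lost with library-sum scaling. In R-NSCP1 over ESC, 2 were higher, among them PLCG1 (40.0 against 18.7 FPKM), and 1 was lower, against 19.4% and 14.7% of all genes, and 13 were higher with library-sum scaling. In NPC over R-NSCP6, 4 were higher and 2 lower, against 16.2% and 21.3%.

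Most other inhibitors of the pathway had low values in R-NSCP6 as well. Of 14 with a row, 9 had their lowest value in R-NSCP6 (64.3%, against 23.4% of all genes), and 8 were lower in R-NSCP6 over R-NSCP1, with 1 higher, against 14.1% and 16.2% of all genes. SPRED1 (LOC100430739), a Sprouty-related inhibitor of RAF activation, was at 22.7 FPKM in ESC, 17.6 at passage 1, 3.92 at passage 6 and 39.5 in NPC. IL17RD (SEF), a membrane antagonist of FGF signalling, was at 28.0, 41.7, 4.20 and 15.0 FPKM in the same order. SPRED2 was at 10.6, 17.8, 6.10 and 16.8 FPKM. CBL, a ubiquitin ligase that marks receptors for degradation, was named after its values were seen, and was at 0.974 FPKM in R-NSCP6 and between 9.20 and 14.3 elsewhere. DUSP4, a nuclear phosphatase of ERK, peaked in R-NSCP1 at 18.0 FPKM and was at 2.78 in R-NSCP6. PEBP1 was at 287 FPKM in R-NSCP6 and 176 in R-NSCP1, which is under 2-fold. In NPC over R-NSCP6, 6 inhibitors were higher, among them LRIG1 (47.8 against 18.1 FPKM), and 3 lower, against 16.2% and 21.3% of all genes. In R-NSCP1 over ESC, 2 were higher and 1 lower, against 19.4% and 14.7%, and 7 were higher with library-sum scaling.

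Other genes that respond to ERK in many cell types were lowest in R-NSCP6 about as often as all genes. Of 21 with a row, 5 were lowest in R-NSCP6 (23.8%, against 23.4% of all genes), and 4 were lower and 2 higher in R-NSCP6 over R-NSCP1, against 14.1% and 16.2%. With library-sum scaling, 7 were lower and 0 higher in that step, so the higher call of EGR1 was lost. EGR1, an immediate early transcription factor, was at 99.2 FPKM in ESC, 88.5 at passage 1, 201 at passage 6 and 109 in NPC. FOS was at 44.6, 76.7, 30.4 and 71.7 FPKM in the same order and was thus lowest in R-NSCP6. DUSP6 over EGR1 was 0.0253 in R-NSCP6 and between 0.186 and 0.399 in the other libraries. JUN was at 55.1 FPKM in NPC against 57.5 in R-NSCP6, and KLF6 at 41.6 FPKM in NPC against 14.2 in R-NSCP6. In R-NSCP1 over ESC, 4 of 20 with a ratio were higher and 3 lower, near the 19.4% and 14.7% of all genes, and 10 were higher with library-sum scaling. The cell cycle gene CCND1 was at 67.2 FPKM in R-NSCP1 against 12.2 in ESC, and MYC at 2.43 against 32.0. In NPC over R-NSCP6, 4 were higher and 2 lower, against 16.2% and 21.3% of all genes. The median log2 ratio of FPKM + 1 in R-NSCP6 over R-NSCP1 was -1.27 for the 14 other inhibitors, 0.39 for these 21 genes and -0.001 for all genes.

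**Figure D5:**
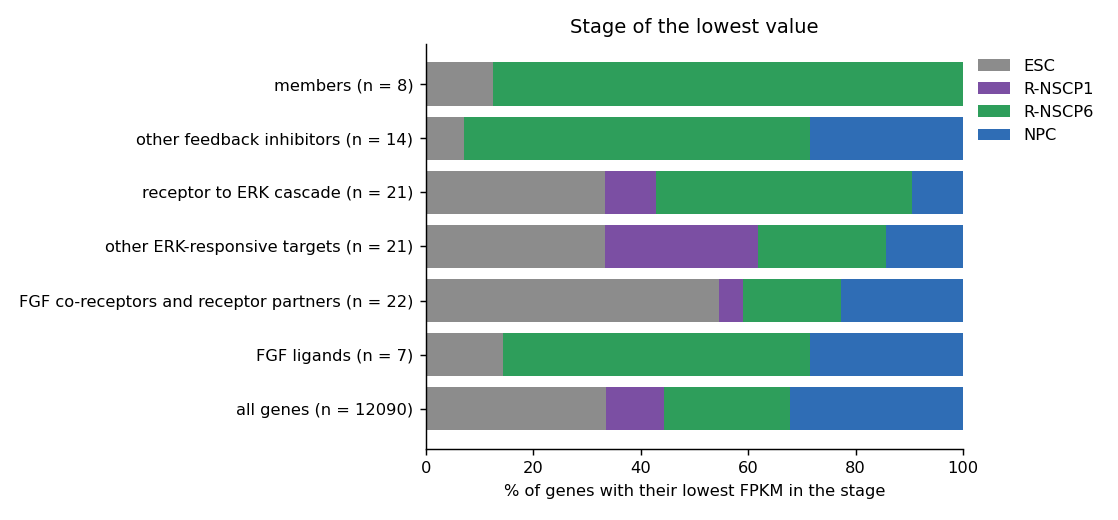
Share of genes (percent) whose lowest FPKM fell in each stage, for the members, 5 lists of the pathway and all genes, with the number of genes above 0 in all stages. R-NSCP6 takes 7 of 8 members and 9 of 14 other inhibitors, against 23.4% of all genes.

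Of the EGF receptors and their ligands, 3 of 11 have a row. EGFR, the receptor of the EGF in the NPC medium, was at 0.424 FPKM in ESC, 1.23 at passage 1, 0.0675 at passage 6 and 7.99 in NPC, the only stage in which it reached 3 FPKM. ERBB2 and ERBB3 were highest in ESC, at 97.7 and 55.5 FPKM.

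The 8 pluripotency markers included 7 that were lower in R-NSCP1 over ESC, POU5F1 (1176 FPKM in ESC) among them, against 14.7% of all genes. The exception, SOX2, was highest in NPC (296 FPKM, against 113 in ESC). LIN28A, though lower, still had 101 FPKM in R-NSCP1. The glial marker S100B reached 159 FPKM in NPC. Of 7 rosette markers with a row, 6 had a ratio in R-NSCP1 over ESC. All 6 were higher, against 19.4% of all genes, and the remaining 1 is listed at 0 in ESC. In R-NSCP6 over R-NSCP1, ZBTB16 was lower (1.76 against 10.9 FPKM), NES was higher (735 against 300.2 FPKM) and the other 5 were not called, DACH1 among them (38.2 against 31.5 FPKM). Most neuron markers changed at the same steps as the feedback targets but in the opposite direction. Calls in R-NSCP6 over R-NSCP1 were 6 of 9 higher and 1 (DCX) lower, against 16.2% and 14.1% of all genes. Those in NPC over R-NSCP6 were 6 lower and 2 higher (DCX and MAP2), against 21.3% and 16.2%. The neuron markers summed to 6.84 FPKM in ESC, 147 at passage 1, 398 at passage 6 and 279 in NPC. STMN2 alone held 201 FPKM of the R-NSCP6 sum and 179 of the NPC sum. NEUROD6 was at 32.0 FPKM in R-NSCP6 and 0.124 in NPC, and is listed at 0 in ESC. Glia-like progenitor markers summed to 10.8, 411, 523 and 3056 FPKM in the same order. All 8 were higher in NPC over R-NSCP6, against 16.2% of all genes. FABP7 made up most of the R-NSCP1 and R-NSCP6 sums (385 and 492 FPKM), where S100B was under 1 FPKM, and OLIG2 is listed at 0 in ESC. The 8 fibroblast markers summed to 64.7, 69.3, 32.2 and 33.3 FPKM in the same order, and none is listed at 0. Of these sums THY1 alone held 41.4, 16.0, 22.9 and 16.8 FPKM. In R-NSCP6 over R-NSCP1, 4 of the 7 that reached 3 FPKM were lower, against 14.1% of all genes. The part of other cell types in the levels of the members was not tested.

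The miRNA libraries of the same stages hold miRNAs with known links to members: miR-21 represses SPRY1 and SPRY2 in rodents, and miR-99a and miR-100 repress FGFR3 in human cells. Their mature sequences as deposited (5′ to 3′, DNA letters) are shown with the seed, bases 2 to 8, in capitals, because the seed sets which transcripts they can pair with.
miR-21: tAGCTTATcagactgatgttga
miR-99a: aACCCGTAgatccgatcttgtg
miR-100: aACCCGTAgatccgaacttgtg
miR-99b: cACCCGTAgaaccgaccttgcg
The last 3 are the only listed miRNAs with their seed, and miR-99b was added for that reason after its values were seen. The seed of miR-21 is held by 2 listed miRNAs, of which only miR-21 is shown here.

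Reads over the 451 listed miRNAs came to 10196819 in ESC, 21341946 at passage 1, 16069492 at passage 6 and 4295120 in NPC, each rounded to a whole number. Levels are given in CPM, counts per 1000000 of these reads, with 95% Poisson intervals that cover counting error only. The intervals take the deposited values as read counts. Those values are expected counts averaged over entries of the same mature miRNA, so the true counting error can differ. miR-21 was at 2335 CPM (2306 to 2365) in ESC, 859.6 (847 to 872) at passage 1, 694 (681 to 707) at passage 6 and 13254 (13145 to 13363) in NPC. It was thus 19.1-fold higher in NPC than in R-NSCP6, the step at which SPRY2 and SPRY1 were higher as well. miR-100 was at 331 CPM (319.6 to 342) in ESC, 26963 (26893 to 27033) at passage 1, 7083 (7042 to 7125) at passage 6 and 84734 (84459 to 85010) in NPC. Among the neural stages it was lowest in R-NSCP6, where FGFR3 was highest, yet both were far lower in ESC. miR-99a was at 59.7 CPM in ESC, 1852 at passage 1, 1718 at passage 6 and 6374 in NPC. miR-99b, which has the same seed, was at 20876 CPM in ESC, 105555 at passage 1, 35241 at passage 6 and 23876 in NPC. Among the neural stages it was lowest in NPC, unlike miR-100. Of miR-99b and miR-100, miR-99b was the more abundant in ESC, R-NSCP1 and R-NSCP6, and miR-100 in NPC. With 1 library per stage, whether the miRNAs have a part in the levels of the members was not tested.

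The genes with the profile most like DUSP6 were sought among 8847 other rows of at least 10 FPKM, by the distance between log2(FPKM + 1) profiles centred over the 4 stages. The nearest were LOC100424084 (distance 0.13), SMG1 (0.32), ENTPD4 (0.35), LRP6 (0.38) and SLC6A6 (0.38), and 16 rows lay within 0.5. The nearest to FGFR3 were ZNF580 (0.18), MIB2 (0.18), LOC100423493 (0.18), HID1 (0.18) and TM7SF2 (0.18), and 54 rows lay within 0.5. None of these 10 genes is in the lists of the pathway. The 10 genes were picked by likeness to DUSP6 or FGFR3 over the same 4 stages. Their sharing of the R-NSCP6 low or high follows from that choice. The search shows only that such profiles also occur outside the lists.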

How the data were processed

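Each of the 4 stages had 1 mRNA and 1 miRNA library. The authors mapped paired-end reads to MMUL_1.0 with TopHat (version 2.0.5 per the submitters' processing notes, where Bowtie 0.12.8.0 stands without a role) and deposited FPKM from Cufflinks 2.0.2 for UCSC known genes. The deposited miRNA values are expected counts, averaged over entries of the same mature miRNA and not scaled for depth. Where a symbol recurs (128 symbols, no member), the row with the highest mean FPKM was kept. FPKM was used without further scaling, and list medians and profiles used log2(FPKM + 1). Members and lists were chosen with earlier results of these data known. Named genes were all members, up to 6 called genes per list with the highest FPKM, up to 3 markers per list and the nearest profiles. The neuron list went over its limit, with DCX, MAP2, STMN2 and NEUROD6 named. CBL, FGF11, FGF19, COX5A and miR-99b were added later. Alternatives were 3 scalings, other pseudocounts, minimum values and folds, and, for miRNA counts rounded to whole numbers, edgeR 4.0.16 (TMM) and DESeq2 1.42.0 factors in R 4.3.3. Other steps used Python 3.11.15, numpy 2.4.6, pandas 2.3.3, scipy 1.17.1 and matplotlib 3.10.9. The calling rule was run on simulated data with small noise set in advance. That checks the code and does not give the error of calls in these libraries.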

Additional observations from a re-analysis of the deposited data

How the results depend on the processing

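The 7 members lowest in R-NSCP6 stayed at 7 under the 3 scalings and both other minimum values, and the members lower in R-NSCP6 over R-NSCP1 numbered between 4 and 7 under all 10 alternatives. With a fold of 3 in place of 2, the members higher in R-NSCP1 over ESC numbered 1, those lower there 0, those higher in NPC over R-NSCP6 4 and those lower there 0. The count lower in NPC over R-NSCP6, which is FGFR3 alone, was 0 under each other scaling, at a log2 ratio of -0.90 with the upper quartile, -0.92 with the median of ratios and -0.46 with the library sum. With library-sum scaling, the members lower in R-NSCP1 over ESC numbered 0, and the log2 ratios there became 0.72 for FGFR1 and 0.66 for DUSP6, a change of sign, with -0.25 for SPRY4, -0.40 for ETV4 and 1.14 for SPRY2. FGFR1 came to -1.06 in R-NSCP6 over R-NSCP1. This scaling moves all log2 ratios by 1.05 in R-NSCP1 over ESC, -0.69 in R-NSCP6 over R-NSCP1 and 0.62 in NPC over R-NSCP6; the other 2 move them by at most 0.19. Chosen after seeing the data, the 3 scalings were also run on the other comparisons: the members lower in NPC over ESC numbered 0 with the upper quartile and with the library sum in place of 2, and those higher in NPC over R-NSCP1 numbered 2 with the median of ratios in place of 1. Of 114 recomputed counts of the lists, 25 moved by over 1.5 times; those with the library sum and the upper quartile were also added after seeing the data. With the library sum, in R-NSCP1 over ESC, 13 cascade genes were higher in place of 2 and 0 lower in place of 1, 7 other inhibitors were higher in place of 2, 10 ERK-responsive genes higher in place of 4, 3 ligands lower in place of 5 and 1 EGF receptor gene lower in place of 2. In R-NSCP6 over R-NSCP1, it gave 0 in place of 4 higher and 10 in place of 6 lower cascade genes, 10 in place of 5 lower co-receptor genes, 0 in place of 1 higher other inhibitors, 0 in place of 2 higher and 7 in place of 4 lower ERK-responsive genes, and 1 in place of 0 lower EGF receptor genes. In NPC over R-NSCP6, it gave 9 in place of 4 higher co-receptor genes, 1 in place of 2 lower cascade genes and 1 in place of 2 lower ERK-responsive genes. The upper quartile gave 7 higher co-receptor genes in that step, 2 higher cascade genes, 0 higher other inhibitors and 1 higher ERK-responsive gene in R-NSCP6 over R-NSCP1, and 1 lower EGF receptor gene in R-NSCP1 over ESC. The median of ratios gave 7 higher co-receptor genes in NPC over R-NSCP6, and 3 lower cascade genes, 1 higher and 2 lower other inhibitors in R-NSCP1 over ESC. The 24 recomputed miRNA ratios kept their direction and side of 2-fold under TMM and DESeq2 factors. No paired analysis was possible because each stage has 1 library, and no library could be left out for the same reason. Gene spans were at hand only for another assembly, so the trend of R-NSCP6 ratios with span is stated in the report without values.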
